A study of Mus musculus with 26 samples.

Results

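The CD300 and paired immunoglobulin-like receptors described here are 9 mouse genes, Cd300a, Cd300c2, Cd300lb, Cd300ld, Cd300lf, Lilr4b, Lilrb4a, Pirb and Pilra, taken by symbol from 52636 genes counted in microglia, the resident macrophages of the brain. RNA was sequenced from 7 combinations of genotype at Tmem106b, the gene of a lysosomal membrane protein, and Grn, which encodes progranulin, a secreted glycoprotein delivered to lysosomes. The groups were Tmem106b KO Grn WT (n = 4), Tmem106b HET with Grn KO (n = 3), Grn HET (n = 3) or Grn WT (n = 4), and Tmem106b WT with Grn KO (n = 4), Grn HET (n = 5) or Grn WT (n = 3). The sources used here do not give the age or strain of the mice or how the cells were isolated. Per library, 37562732 to 63710833 exonic reads were counted.

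Paired receptors come in activating and inhibitory forms with similar outer domains. Inhibitory members carry immunoreceptor tyrosine-based inhibitory motifs (ITIMs), which recruit phosphatases such as Ptpn6 when phosphorylated, whereas activating members have short tails and signal through the adaptors Tyrobp or Fcer1g. CD300 receptors bind lipids exposed on dying cells, such as phosphatidylserine, and act in myeloid cells, microglia among them.

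The 5 CD300 genes lie in a cluster on chromosome 11 (GRCm38, GENCODE M21). Cd300a spans 114890041 to 114904654 on the plus strand. On the minus strand follow Cd300lb at 114922781 to 114934386, Cd300ld at 114982274 to 114989922, Cd300c2 at 114996721 to 115001880 and Cd300lf at 115116214 to 115133992. Lilr4b (51480632 to 51486703) and Lilrb4a (51490956 to 51496611) are neighbours on the plus strand of chromosome 10. Pirb lies on chromosome 7 (3711409 to 3720391) and Pilra on chromosome 5 (137821952 to 137836281), both on the minus strand.

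RefSeq (GRCm38.p6) gave a promoter for 8 of the 9 genes, all but Lilrb4a. The 250 bases before the start of 4 of them are shown. Cd300lf and Lilr4b are the genes that were higher in Grn KO microglia in every Grn KO comparison, and Cd300a and Cd300c2 are the most abundant members, which did not pass in any. Each is written 5′ to 3′ on the strand of its gene, and capitals mark GAGGAAG, the core bound by the myeloid factor PU.1, on either strand.
Cd300lf: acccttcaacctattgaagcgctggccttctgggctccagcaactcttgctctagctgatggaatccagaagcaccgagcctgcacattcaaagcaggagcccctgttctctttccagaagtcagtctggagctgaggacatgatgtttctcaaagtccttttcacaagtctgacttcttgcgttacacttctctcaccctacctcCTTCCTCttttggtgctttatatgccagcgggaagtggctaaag
Lilr4b: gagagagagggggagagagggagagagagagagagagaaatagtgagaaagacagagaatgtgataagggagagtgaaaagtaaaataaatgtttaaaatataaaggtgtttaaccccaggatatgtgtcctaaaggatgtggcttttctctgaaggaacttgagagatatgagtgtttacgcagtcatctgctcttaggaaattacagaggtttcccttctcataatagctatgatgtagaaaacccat
Cd300a: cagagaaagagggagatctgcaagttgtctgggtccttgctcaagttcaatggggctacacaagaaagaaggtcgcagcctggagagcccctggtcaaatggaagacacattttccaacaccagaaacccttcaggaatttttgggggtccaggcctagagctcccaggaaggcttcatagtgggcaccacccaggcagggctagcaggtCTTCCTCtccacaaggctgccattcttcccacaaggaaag
Cd300c2: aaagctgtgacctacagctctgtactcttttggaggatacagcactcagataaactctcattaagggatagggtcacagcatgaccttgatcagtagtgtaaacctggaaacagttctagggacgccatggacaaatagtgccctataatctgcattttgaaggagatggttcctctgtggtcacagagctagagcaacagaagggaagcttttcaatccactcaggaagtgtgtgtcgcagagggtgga

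These windows are chr11:115133993-115134242 (minus strand) for Cd300lf, chr10:51480362-51480611 (plus) for Lilr4b, chr11:114889791-114890040 (plus) for Cd300a and chr11:115001881-115002130 (minus) for Cd300c2. Both strands were searched for GAGGAAG, for the E-box CACGTG and the M-box CATGTG, sites of the MiT/TFE factors of lysosomal genes, and for the AP-1 site TGANTCA. The PU.1 core GAGGAAG was found in Cd300lf (first base at -44 from the start), Cd300a (-40), Cd300ld (-143), Pirb (-120) and Pilra (-211), and in 10.6% of 32851 promoter windows of the same length. CATGTG was found in Cd300ld and Pirb, and in 12.3% of all windows. CACGTG (6.02% of all windows) and TGANTCA (6.75%) were found in none of the 8, and Lilr4b, Cd300c2 and Cd300lb held none of the 4 motifs. No motif was shared by Cd300lf and Lilr4b, and the members with GAGGAAG included genes that were higher in Grn KO microglia and genes that did not pass.

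Grn itself was at 0 to 15.99 CPM (read counts relative to TMM-scaled library totals, a scale that corrects for depth but not for gene length) in the 7 Grn KO libraries, against at least 554 CPM in every other library. In Grn HET libraries Grn was at 824 to 1782 CPM with Tmem106b WT and at 1554 to 2033 CPM with Tmem106b HET. Every Grn HET library was below every Grn WT library of its background, at 2299 to 3897 and 2075 to 4048 CPM. Yet the drop of Grn did not pass (log2 fold change -1.59, SE 1.24, and -0.24, SE 1.29). For Grn, a missing call in Grn HET against Grn WT therefore does not show an unchanged level. SEs were smaller for Cd300lf (0.54 and 0.57) and Lilr4b (0.40 and 0.41), but not far from these for Cd300lb (1.19 and 1.46). The missed drop of Grn thus does not measure the power for Cd300lf and Lilr4b. For them, too, a missing call alone does not show an unchanged level. Tmem106b was at 24.0 to 35.7 CPM in Tmem106b KO libraries, against 68.7 to 88.6 CPM in Tmem106b WT Grn WT libraries. In Tmem106b HET libraries it was at 39.1 to 83.4 CPM, which overlaps the 57.5 to 102 CPM of all Tmem106b WT libraries, and its lower level passed at no Grn genotype (-0.30 in Grn WT, edgeR adjusted p = 1). All 12 microglia markers were detected in every group. Summed over the 12, they reached 10460 to 36710 CPM in Grn KO libraries and between 33980 and 65710 CPM in all others except Tmem106b KO Grn WT replicate 2, at 11120 CPM. That library and Tmem106b HET Grn KO replicate 3 (10460 CPM) stood apart, with neuron marker sums of 9090 and 8177 CPM, and both were labelled Hemi, a dissection label that the sources do not explain. In bulk RNA, fewer cells of a type and less RNA per cell cannot be told apart. In the Tmem106b HET Grn KO and Tmem106b HET Grn WT groups every female library was labelled Entire and every male library Hemi, so sex and dissection cannot be told apart there. The same holds in the other direction within Tmem106b WT Grn WT, where the 2 male libraries were Entire and the 1 female library, replicate 2, was Hemi.

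The receptor genes differed in how they changed in microglia without Grn: Cd300lf and Lilr4b rose several-fold in both Tmem106b backgrounds, Cd300ld rose when the backgrounds were averaged, and no member passed as lower. Of the 9 members 8 passed the filter on low counts, all but Lilrb4a, and were tested with edgeR's quasi-likelihood test, adjusted over 21371 genes, with calls at an adjusted p under 0.05. The labels do not say that the libraries of a group came from separate animals, so p-values measure only the spread between these samples, which may be technical. In Tmem106b WT microglia 2 members were higher in Grn KO than in Grn WT and 0 were lower, while 0.426% of all genes were higher and 0.15% lower (0.576% in all). In Tmem106b HET microglia 2 were higher and 0 lower, against 8.42% and 6.05% of all genes (14.5% in all). In the mean of both backgrounds 3 were higher and 0 lower, against 10.7% and 7.38% (18.1% in all). The median log2 fold change of the 8 members was 1.41, 0.49 and 0.95 in these comparisons, against 0.10, -0.02 and 0.06 for all genes tested. The groups did not overlap, with Grn KO higher, for 8.78% of all genes in Tmem106b WT and for 9.85% in Tmem106b HET microglia.

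**Figure D1:**
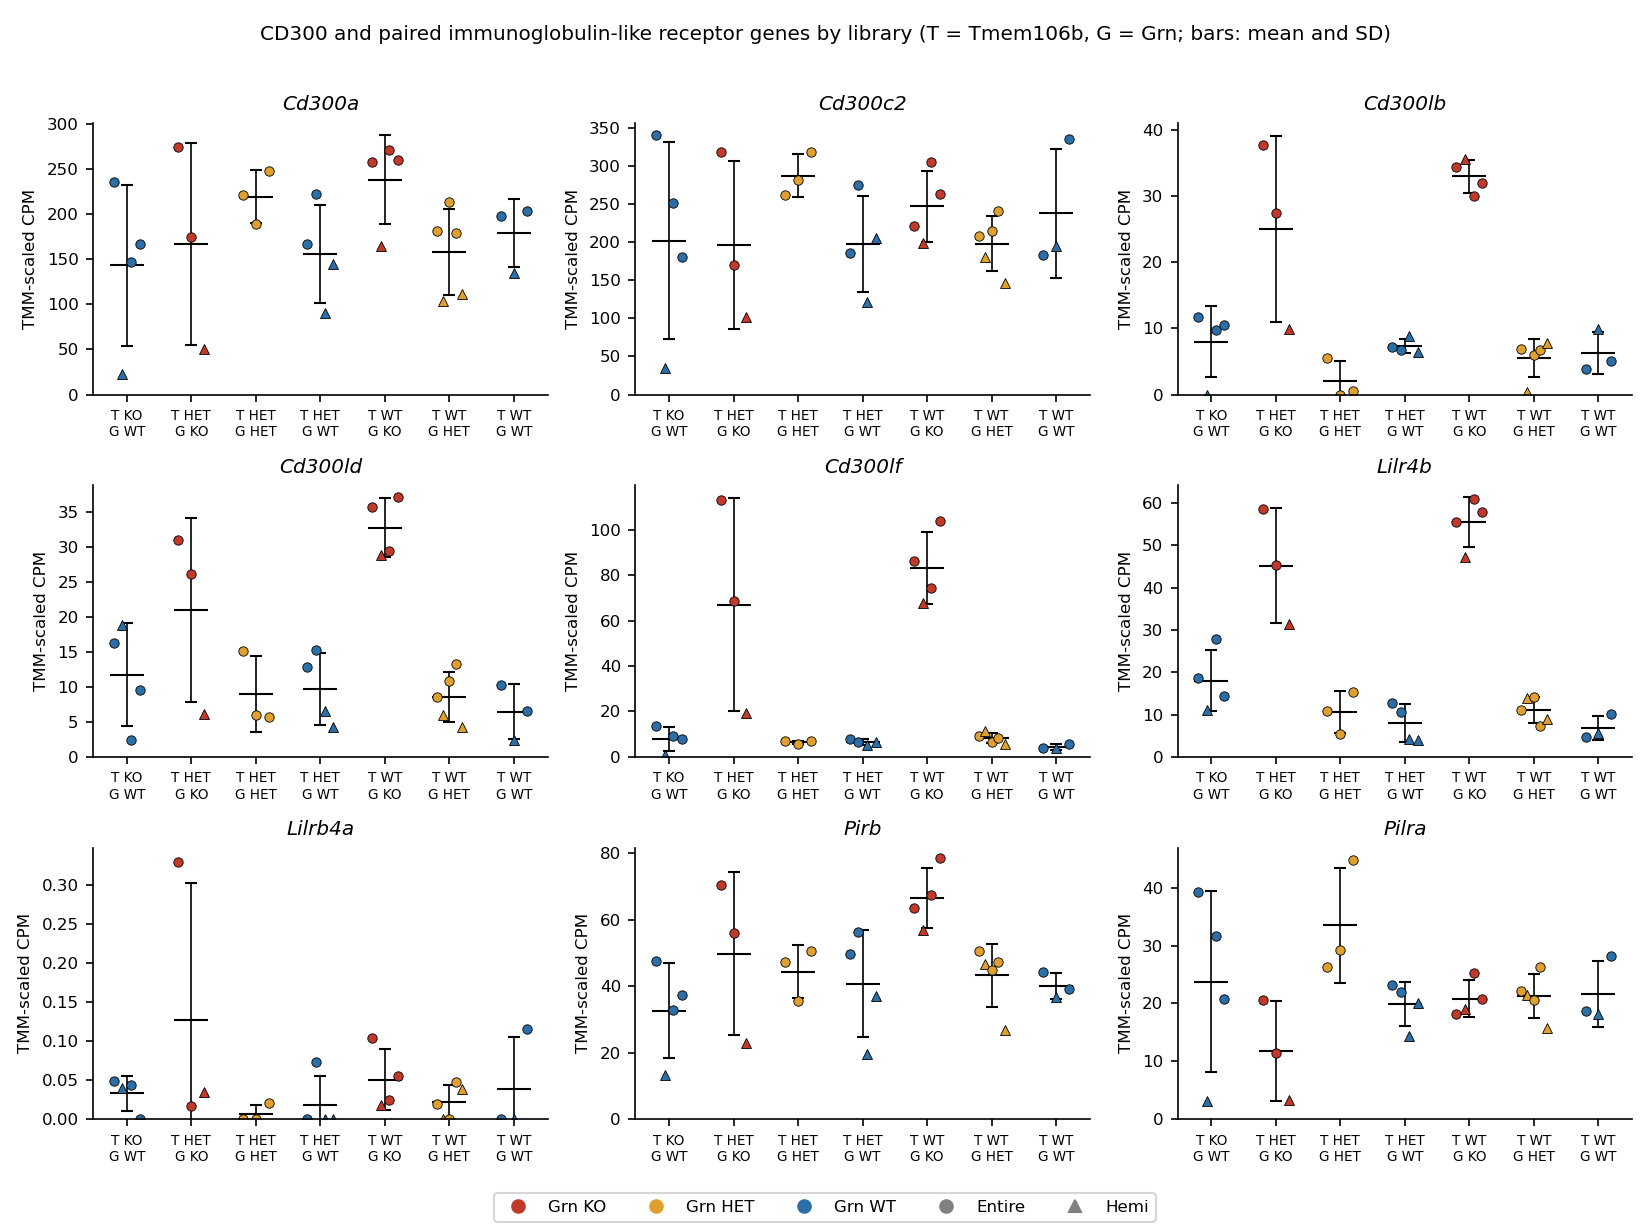
Level of each receptor gene in CPM, on linear axes from 0, in every library of the 7 genotype groups (T, Tmem106b; G, Grn). Points are libraries, triangles mark Hemi dissections, and bars give the mean and SD. The 7 Grn KO libraries of Cd300lf and Lilr4b lie above all 19 others, while Cd300a, Cd300c2 and Pilra show no such split.

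Among the inhibitory receptors, Cd300lf stood out. It encodes an ITIM receptor that binds phosphatidylserine and is known in mice as the entry receptor of norovirus. With Tmem106b WT its level was 86.1, 67.8, 74.5 and 104 CPM in the 4 Grn KO libraries, against 3.68, 3.72 and 5.87 CPM in the 3 Grn WT libraries. Among Tmem106b HET libraries it was at 113, 68.6 and 19.3 CPM in Grn KO, against 8.06, 6.36, 5.19 and 6.44 CPM in Grn WT. Every Grn KO library was above every Grn WT library in both backgrounds, and the lowest Grn KO value was that of Tmem106b HET Grn KO replicate 3, the library low in microglia markers. The group means were 83.1 ± 15.8 CPM (SD, n = 4) in Tmem106b WT Grn KO and 4.42 ± 1.25 CPM (n = 3) in Tmem106b WT Grn WT. Fitted log2 fold changes were 4.04 (SE 0.62, edgeR adjusted p = 0.00485) in Tmem106b WT and 2.95 (SE 0.56, adjusted p = 0.00368) in Tmem106b HET microglia, or 16.4-fold and 7.75-fold. The mean over both was 3.49 (SE 0.42, adjusted p = 6.02e-05), and the change did not differ detectably between backgrounds (difference -1.08, 95% interval -2.66 to 0.49, adjusted p = 0.873).

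Loss of a single Grn allele gave no called change of Cd300lf. It was at 5.81, 6.73, 8.26, 9.19 and 11.5 CPM in the 5 Tmem106b WT Grn HET libraries and at 6.78, 5.77 and 6.99 CPM in the 3 Tmem106b HET Grn HET libraries. Both ranges lie under those of Grn KO and overlap those of Grn WT. Against Grn HET, Cd300lf was higher in Grn KO by 3.19 (SE 0.49, edgeR adjusted p = 0.00303) in Tmem106b WT and by 3.24 (SE 0.63, adjusted p = 0.00911) in Tmem106b HET microglia. Grn HET against Grn WT gave 0.85 (95% interval -0.29 to 1.98, adjusted p = 1) and -0.29 (-1.47 to 0.90, adjusted p = 0.954). In GENCODE M21 Cd300lf overlaps the span of Rab37 on the opposite strand, but no exon base of the 2 genes is shared there. The deposited width of Cd300lf is 1892 bases, against 5149 exon bases in this annotation, and that of Lilr4b 1836 against 5439. The authors' gene models thus differed from it for both genes.

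Within each dissection the ratio of mean Cd300lf CPM, Grn KO over Grn WT, was 18.5 in Entire libraries and 18.2 between the lone Hemi library of each genotype in Tmem106b WT, and 12.6 in Entire and 3.31 in Hemi libraries of Tmem106b HET microglia. The lone Hemi Grn KO library of Tmem106b HET is the one low in microglia markers. In Entire libraries alone the log2 fold change was 4.09 (edgeR adjusted p = 0.000283) in Tmem106b WT and 3.62 (adjusted p = 0.000332) in Tmem106b HET microglia. Without the 2 libraries lowest in microglia markers it was 3.60 (adjusted p = 3.77e-06) in Tmem106b HET microglia. Dropping replicate 2 of Tmem106b WT Grn WT ended the Tmem106b WT call (edgeR adjusted p = 0.0776). That library was the lone female and the lone Hemi library of its group. Without it 1 gene passed over all genes in this comparison, against 123 with it. The Tmem106b HET call was lost with summed markers of other cells as covariates (3.10, edgeR adjusted p = 0.211). The call on the mean of both backgrounds held in both settings.

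Cd300a, an ITIM receptor for phosphatidylserine and phosphatidylethanolamine, did not pass in any comparison. It was at 258, 164, 271 and 261 CPM in Tmem106b WT Grn KO libraries, against 199, 135 and 203 CPM in Tmem106b WT Grn WT libraries. On the Tmem106b HET background it was at 275, 175 and 51.0 CPM in Grn KO, against 167, 222, 90.4 and 145 CPM in Grn WT. The groups overlapped in both backgrounds, and Hemi libraries were the lowest of every group that held any. The log2 fold changes were 0.23 (edgeR adjusted p = 0.861) and -0.34 (adjusted p = 0.583), with 95% intervals of -0.52 to 0.99 and -1.10 to 0.43.

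Pirb encodes an ITIM receptor for MHC class I molecules that also binds myelin inhibitors of axon growth. It was at 63.5, 56.9, 67.6 and 78.5 CPM in Tmem106b WT Grn KO libraries, against 44.3, 36.8 and 39.2 CPM in Tmem106b WT Grn WT libraries. These groups did not overlap, yet the log2 fold change of 0.53 (SE 0.26) did not pass (edgeR adjusted p = 0.424). The Tmem106b HET groups overlapped, at 70.5, 56.1 and 22.9 CPM in Grn KO and 49.6, 56.4, 19.7 and 37.1 CPM in Grn WT (0.07, SE 0.26, adjusted p = 0.892). Of the 50-base stretches of Pirb transcripts, 34.0% also occur in other genes, among them Gm14548, Pira2 and Lilra6, so its reads may be split among them.

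Pilra encodes an ITIM receptor for sialylated O-glycoproteins, and did not pass between Grn KO and Grn WT in either background. It was at 18.2, 19.1, 25.3 and 20.7 CPM in Tmem106b WT Grn KO libraries, against 18.6, 18.2 and 28.2 CPM in Tmem106b WT Grn WT libraries, which overlap. With Tmem106b HET the level was 20.6, 11.4 and 3.36 CPM in Grn KO, 26.4, 29.3 and 44.9 CPM in Grn HET, and 23.2, 21.9, 14.5 and 20.1 CPM in Grn WT. Every Grn KO library there was below every Grn HET library, as for 13.5% of all genes. The log2 fold change against Grn HET was -1.62 (SE 0.52, edgeR adjusted p = 0.0665), and against Grn WT -1.18 (SE 0.49, adjusted p = 0.114). Against Grn HET it passed as lower in 3 of 15 alternatives: by DESeq2 (adjusted p = 0.0178), without the 2 libraries lowest in microglia markers (0.0347) and without Tmem106b HET Grn KO replicate 1 (0.0425). Zcwpw1, on the opposite strand, shares 468 exon bases with Pilra, and its level was likewise 14.2 ± 6.59 CPM in Tmem106b HET Grn KO (n = 3), 39.5 ± 11.8 in Grn HET (n = 3) and 28.5 ± 6.29 in Grn WT (n = 4). How reads in the shared bases were assigned was not given in the sources used here.

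Lilrb4a, which encodes the ITIM receptor gp49B, held 50 counts in all 26 libraries and none in 10 of them, and was not tested. Its highest value was 16 counts, 0.330 CPM, in Tmem106b HET Grn KO replicate 1. In Tmem106b WT microglia it held 6, 1, 1 and 3 counts in Grn KO and 0, 0 and 4 counts in Grn WT libraries. These numbers do not show whether the gene was expressed. In GENCODE M21, 1874 of its 5227 exon bases also belong to other genes, chiefly the predicted gene Gm49339 (24 counts in all libraries), which spans Lilr4b and Lilrb4a and has 22 exon bases of its own. With these shared exons included, 47.2% of its 50-base stretches occur in other genes. The deposited width of Lilrb4a is 1437 bases, so the authors' gene model differed from this annotation, and their treatment of shared reads was not given in the sources used here.

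Of the activating CD300 receptors, Cd300ld, which pairs with Fcer1g, rose in the mean of both backgrounds. It was at 35.6, 28.9, 29.4 and 37.1 CPM in Tmem106b WT Grn KO libraries, against 10.3, 2.46 and 6.59 CPM in Tmem106b WT Grn WT libraries. Among Tmem106b HET libraries the level was 30.9, 26.1 and 6.11 CPM in Grn KO, against 12.9, 15.2, 6.55 and 4.20 CPM in Grn WT. The groups were apart in Tmem106b WT and overlapped in Tmem106b HET microglia, through the Grn KO library low in microglia markers. The mean log2 fold change was 1.61 (SE 0.44, edgeR adjusted p = 0.0166), while the single backgrounds, at 2.31 (SE 0.66, adjusted p = 0.126) and 0.91 (SE 0.59, adjusted p = 0.317), did not pass. Dropping replicate 2 of Tmem106b WT Grn WT ended the mean call (1.29, adjusted p = 0.0901), as did fitting Entire libraries alone (1.42, adjusted p = 0.0551). The call was also lost with sex as the lone covariate (1.53, adjusted p = 0.0566) and with summed markers of other cells as covariates (1.92, adjusted p = 0.257). Against Grn HET, Cd300ld did not pass in Tmem106b WT microglia (1.94, SE 0.52, edgeR adjusted p = 0.0888), with 2 of 17 alternatives passing. It did not pass in Tmem106b HET either (1.19, SE 0.68, adjusted p = 0.298), with 0 of 15. Of the 50-base stretches of Cd300ld, 3.89% occur in other genes, and 3.66% in Cd300lf. The part of reads shared with Cd300lf in the level of Cd300ld was not tested.

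Cd300lb, an activating receptor that pairs with Tyrobp, showed separated groups without passing. It was at 34.5, 35.7, 30.01 and 32.0 CPM in Tmem106b WT Grn KO libraries, against 3.88, 9.85 and 5.03 CPM in Tmem106b WT Grn WT libraries. Tmem106b HET microglia held 37.8, 27.4 and 9.95 CPM in Grn KO, 5.57, 0 and 0.530 CPM in Grn HET, and 7.21, 6.80, 8.82 and 6.39 CPM in Grn WT. Each Grn KO group was above the Grn HET group of its background, as for 4.58% of all genes in Tmem106b WT and 16.9% in Tmem106b HET, and above the Grn WT group, and Tmem106b HET Grn HET was below Tmem106b HET Grn WT, as for 2.88% of all genes. The log2 fold changes over Grn WT of 2.28 (SE 1.34) and 1.61 (SE 1.29) had edgeR adjusted p-values of 0.511 and 0.429, and their mean was 1.94 (SE 0.95, adjusted p = 0.163).

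The wide errors of Cd300lb go with a few libraries of other groups. It held 0 counts in Tmem106b KO Grn WT replicate 2 and Tmem106b HET Grn HET replicate 2, 21 counts in Tmem106b WT Grn HET replicate 2 and 26 in Tmem106b HET Grn HET replicate 3, while every other library held 151 or more. Fitted on the Grn KO and Grn WT groups of both backgrounds alone, a choice made after seeing these values, the mean was 1.99 (edgeR adjusted p = 0.00221). This was the lowest adjusted p of 23 alternatives for the mean, of which 2 passed. With 1 library left out in turn, 0 of 14 fits passed. Against Grn WT in single backgrounds, 1 of 15 alternatives passed in Tmem106b WT and 0 of 16 in Tmem106b HET. Against Grn HET, Cd300lb did not pass in Tmem106b HET microglia (3.79, SE 1.58, edgeR adjusted p = 0.149), but 3 of 15 alternatives passed. In Tmem106b WT it did not pass either (2.58, SE 1.11, adjusted p = 0.373), with 0 of 17. No stretch of 50 bases of Cd300lb occurs in another gene.

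Cd300c2 encodes an activating receptor that pairs with Tyrobp, and its level overlapped between Grn KO and Grn WT in both backgrounds. It was at 221, 199, 305 and 263 CPM in Tmem106b WT Grn KO libraries, against 183, 195 and 335 CPM in Tmem106b WT Grn WT libraries. The log2 fold changes were -0.12 (95% interval -0.93 to 0.68, edgeR adjusted p = 0.941) in Tmem106b WT and -0.27 (-1.08 to 0.53, adjusted p = 0.682) in Tmem106b HET microglia.

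Lilr4b encodes gp49A, a partner of gp49B that lacks ITIMs. In Tmem106b WT microglia it was at 55.5, 47.4, 61.0 and 58.0 CPM in Grn KO libraries, against 4.70, 5.62 and 10.1 CPM in Grn WT libraries. In Tmem106b HET microglia it was at 58.6, 45.5 and 31.5 CPM in Grn KO, against 12.8, 10.6, 4.11 and 4.07 CPM in Grn WT. The lowest Grn KO library was above the highest of the other 19, Tmem106b KO Grn WT replicate 3 at 27.9 CPM. The log2 fold changes were 2.94 (SE 0.43, edgeR adjusted p = 0.0034), or 7.69-fold, and 2.49 (SE 0.39, adjusted p = 0.00174), or 5.63-fold. Their mean was 2.72 (SE 0.29, adjusted p = 2.43e-05), and their difference was -0.45 (95% interval -1.60 to 0.70, adjusted p = 0.891).

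Lilr4b, too, gave no called change in heterozygotes. It was at 7.17, 8.97, 10.98, 13.9 and 14.2 CPM in Tmem106b WT Grn HET and at 5.35, 10.9 and 15.3 CPM in Tmem106b HET Grn HET libraries. Over Grn HET, Grn KO was higher by 2.21 (SE 0.35, edgeR adjusted p = 0.00329) and 2.20 (SE 0.45, adjusted p = 0.0111). Grn HET against Grn WT gave 0.73 (95% interval -0.09 to 1.56, adjusted p = 1) and 0.30 (-0.56 to 1.16, adjusted p = 0.916). The ratio of mean CPM, Grn KO over Grn WT, was 7.84 in Entire libraries and 8.43 between the lone Hemi libraries of Tmem106b WT, and 4.44 and 7.70 in those of Tmem106b HET microglia, with a lone Hemi Grn KO library. Of its 50-base stretches 24.5% occur in other genes, nearly all in Lilrb4a. Summing the counts of both genes gave a mean log2 fold change of 2.72 (edgeR adjusted p = 2.51e-05). Lilrb4a held 50 counts in all libraries against 28859 for Lilr4b, so this sum could not show whether shared reads affect the change. With replicate 2 of Tmem106b WT Grn WT dropped, the Tmem106b WT call of Lilr4b ended (adjusted p = 0.0731). Its Tmem106b HET call was lost with summed markers of other cells as covariates (2.83, adjusted p = 0.102).

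Over all members, Grn KO against Grn HET called the same 2 genes higher, Cd300lf and Lilr4b, and none lower in either background. The shares of all genes called were 0.678% higher and 0.262% lower (0.941% in all) in Tmem106b WT, and 3.77% and 2.77% (6.54% in all) in Tmem106b HET microglia. Without Tmem106b HET Grn HET replicate 2 both Tmem106b HET calls were lost (adjusted p = 0.0557 for Cd300lf and 0.0653 for Lilr4b). They were also lost with summed markers of other cells as covariates (0.231 and 0.23) and in a fit on the compared groups alone (0.104 for both). These comparisons share the Grn KO libraries with those against Grn WT. Grn HET against Grn WT called 0 of 8 members in both backgrounds, and 0% of all genes. Grn itself was thus not called, although its Grn HET and Grn WT libraries did not overlap in either background. At an unadjusted p under 0.05 edgeR gave 0 members in both, against 3.43% and 5.54% of all genes, and DESeq2 also called 0.

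**Figure D2:**
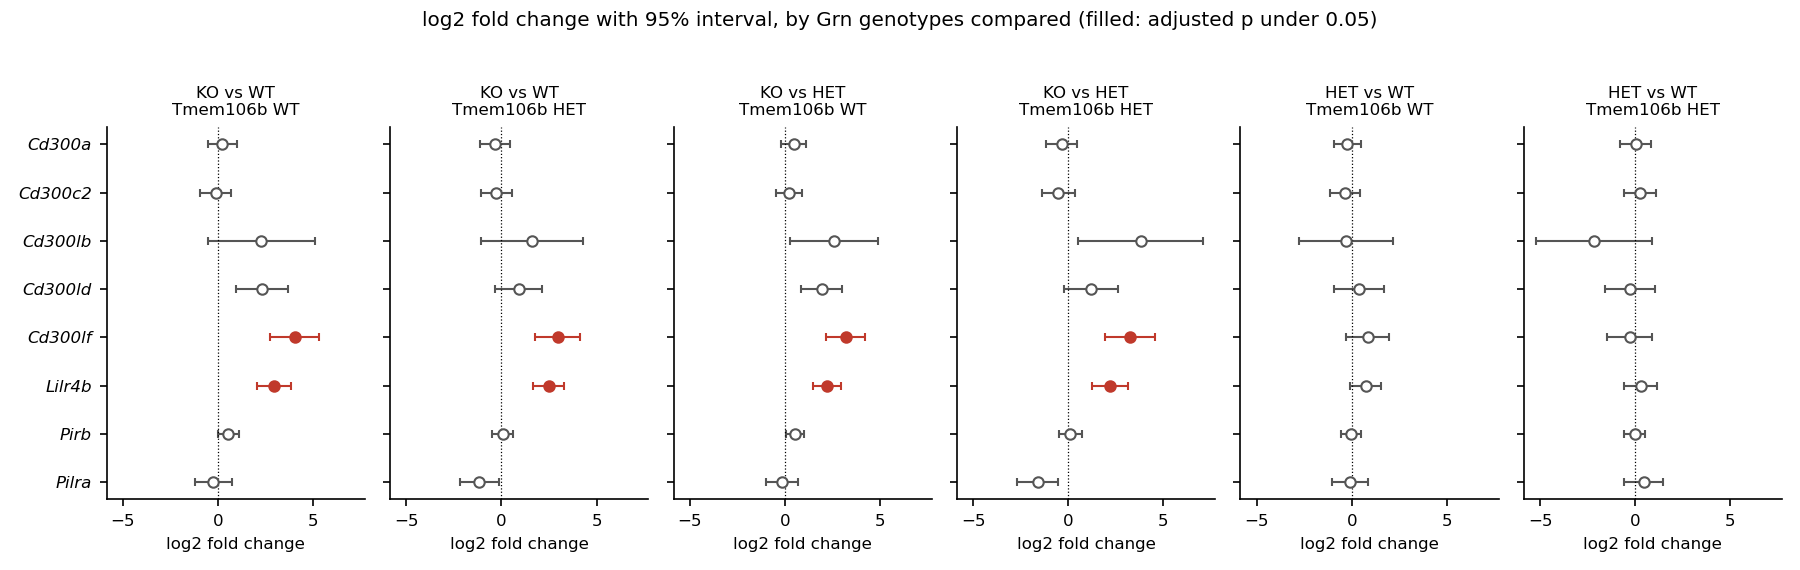
log2 fold change (points) and 95% interval (bars) of the 8 tested receptor genes for the 6 comparisons between Grn genotypes, with the first-named genotype over the second. Filled points have an edgeR adjusted p under 0.05: Cd300lf and Lilr4b in each comparison with Grn KO, and no gene in Grn HET against Grn WT.

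No member passed the test for a change with Tmem106b genotype. Tmem106b KO against Tmem106b WT in Grn WT microglia called 0 of 8, against 0.00468% of all genes, and 1 member had an unadjusted p under 0.05 (11% of all genes). That member was Lilr4b, at 18.6, 11.2, 27.9 and 14.3 CPM in Tmem106b KO Grn WT libraries, against 4.70, 5.62 and 10.1 CPM in Tmem106b WT Grn WT libraries. All 4 KO libraries were above all 3 WT libraries, as for 2.52% of all genes, with a log2 fold change of 1.34 (SE 0.40, edgeR adjusted p = 0.434; DESeq2 Wald adjusted p = 0.022). Tmem106b HET against Tmem106b WT called 0 of 8 members at each Grn genotype, and 0% of all genes. At an unadjusted p under 0.05 edgeR gave 0 members in Grn WT, Grn HET and Grn KO, against 3.49%, 6.79% and 3.79% of all genes, and DESeq2 called 0 in each. The 8 log2 fold changes in Grn KO microglia, from -0.28 for Lilr4b to -0.95 for Pilra, were all below 0, with the Tmem106b HET group holding the library low in microglia markers. The test of whether the Grn KO change differed between backgrounds called 0 of 8 members (0% of all genes; 0 members and 4.29% of genes at an unadjusted p under 0.05; 0 by DESeq2).

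Levels of different genes were compared per length, in the RPKM values that the authors deposited. In Tmem106b WT Grn KO microglia the order was Cd300c2 (161 ± 21.5 RPKM), Cd300a (39.7 ± 6.38), Cd300lf (34.1 ± 5.15), Lilr4b (23.5 ± 1.12), Pirb (13.5 ± 1.08), Cd300ld (9.64 ± 1.08), Cd300lb (8.99 ± 1.29), Pilra (5.59 ± 0.656) and Lilrb4a (0.0272 ± 0.0214; SD, n = 4). Cd300a and Cd300lf, and Cd300ld and Cd300lb, overlapped between libraries, while other neighbours in the order did not. In Tmem106b WT Grn WT microglia Cd300c2 (164 ± 50.7 RPKM, n = 3) and Cd300a (31.4 ± 4.06) were again highest, followed by Pirb (8.61 ± 0.572), Pilra (6.12 ± 1.32), Lilr4b (3.03 ± 1.17), Cd300ld (1.94 ± 1.09), Cd300lf (1.91 ± 0.457) and Cd300lb (1.85 ± 1.12). The last 4 of these overlapped with their neighbours. Cd300lf thus held the third place in Grn KO and the seventh in Grn WT microglia.

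**Figure D3:**
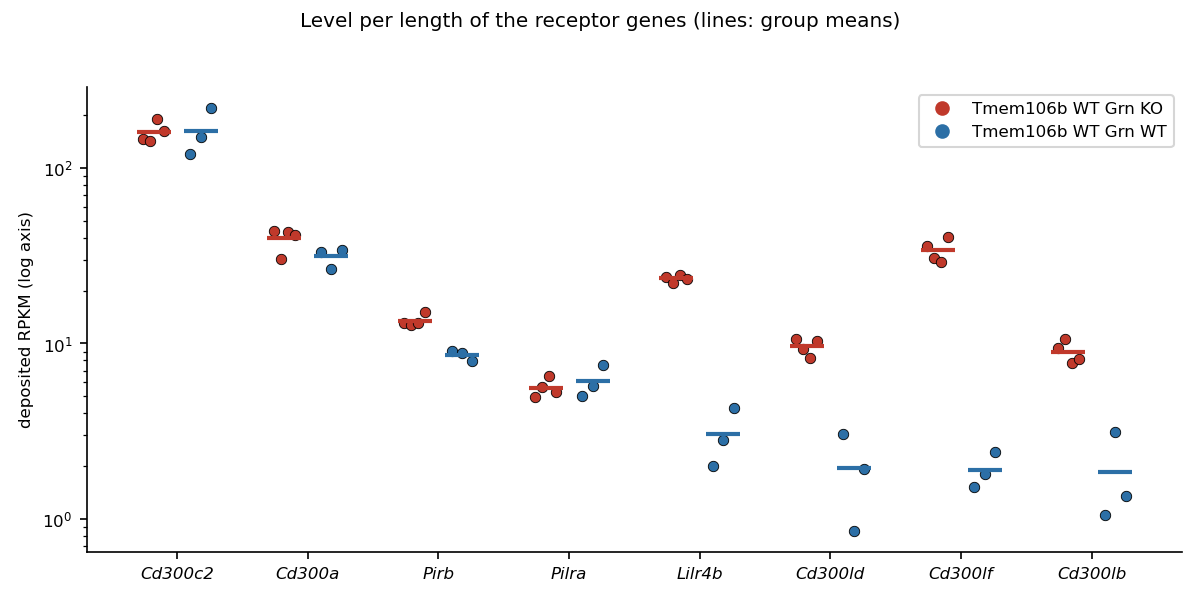
Deposited RPKM (log axis) of 8 receptor genes in Tmem106b WT Grn KO (red) and Tmem106b WT Grn WT (blue) libraries, with points for libraries and lines for means. Lilrb4a, at 0 in some libraries, is left out. Cd300c2 is highest in both genotypes at 161 and 164 RPKM, and Cd300lf, Lilr4b, Cd300ld, Cd300lb and Pirb lie apart between the genotypes.

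Within the CD300 cluster, Cd300c2 and Cd300a made up most of the summed CPM in both genotypes of both backgrounds, but Cd300lf took a larger part in Grn KO. Its share of the summed CPM of the 5 CD300 genes was 13.2% ± 1.88 (SD, n = 4) in Tmem106b WT Grn KO and 1.02% ± 0.0829 (n = 3) in Tmem106b WT Grn WT. With Tmem106b HET it was 13.2% ± 2.56 (n = 3) in Grn KO and 1.83% ± 0.459 (n = 4) in Grn WT. The ranges did not overlap in either background, at 10.5% to 14.9% against 0.921% to 1.07%, and at 10.2% to 14.7% against 1.21% to 2.23%. The Tmem106b HET Grn KO library low in microglia markers had the lowest share of the Grn KO libraries, 10.2%. Shares of CPM are not corrected for gene length, so longer genes weigh more in them. The deposited widths were 4645 bases for Cd300a, 1892 for Cd300lf and 1187 for Cd300c2.

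Members fell into more than one pattern over the 26 libraries. As a description, with libraries that share genotype and depth, Spearman's rho was 0.858 between Cd300lf and Lilr4b, 0.816 between Cd300a and Cd300c2, and 0.788 between Cd300c2 and Pilra. It was 0.714 between Cd300lb and Cd300lf, 0.106 between Cd300lf and Pilra, and -0.244 between Cd300lb and Pilra. Among genes of at least 5 CPM on average, the most like Cd300lf were Hpse (rho 0.92), Gpnmb (0.914) and Igf1 (0.904). For Lilr4b they were Igf1 (0.919), Ms4a7 (0.918) and Lgals3 (0.917), so Igf1 was named for both. For Cd300lb they were Cyp4f18 (0.918), Mt2 (0.87) and Pygl (0.849), and for Cd300ld Pld3 (0.789), Prune2 (0.772) and Coro1c (0.749). For Cd300a they were Il10rb (0.973), Renbp (0.949) and Ctsa (0.947), for Cd300c2 Brk1 (0.931), Vamp8 (0.921) and Rnase4 (0.912), for Pirb Glb1 (0.899), Apobec1 (0.896) and Cd22 (0.876), and for Pilra Ccl6 (0.94), Ptpn18 (0.934) and Ccl9 (0.919).

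**Figure D4:**
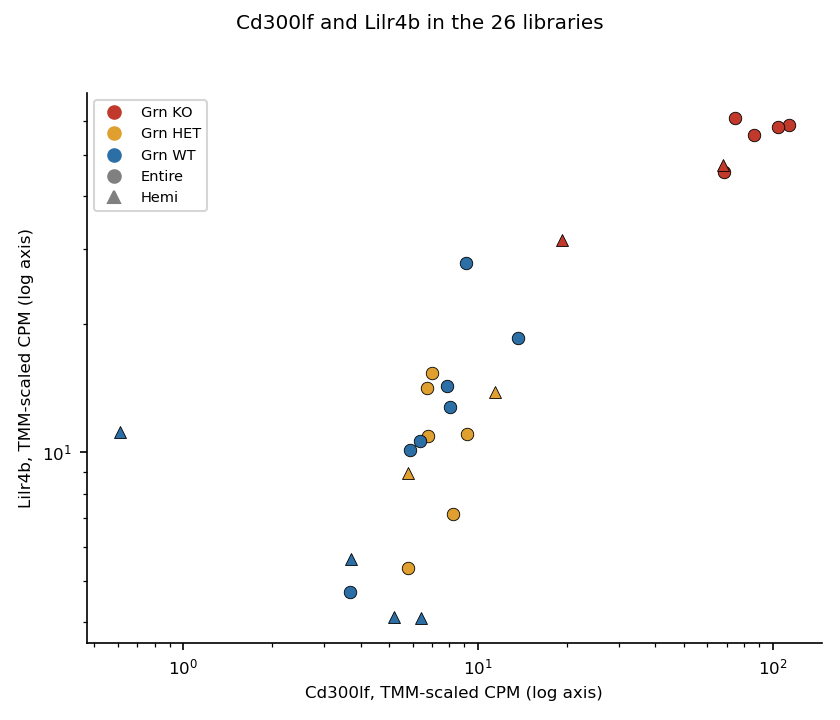
Lilr4b against Cd300lf in CPM (both log axes) in the 26 libraries, coloured by Grn genotype, with triangles for Hemi dissections. The 7 Grn KO libraries lie at 19.3 to 113 CPM of Cd300lf and 31.5 to 61.0 CPM of Lilr4b, above all 19 others on both axes.

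The partners of these receptors did not move as a block. Among 16 tested genes for protein ligands, 3 were higher and 2 lower in the mean of the Grn KO against Grn WT comparisons, with a median log2 fold change of 0.45. Of all genes tested 10.7% were higher and 7.38% lower in this comparison, with a median of 0.06. Apoe, a lipid carrier that binds the human receptor LILRB4, averaged 66410 ± 16680 CPM in Tmem106b WT Grn KO (n = 4) and 6052 ± 1325 CPM in Tmem106b WT Grn WT (n = 3; mean log2 fold change 3.14, SE 0.33, edgeR adjusted p = 2.3e-05). Pianp, a ligand of Pilra, averaged 17.8 ± 6.18 and 3.04 ± 3.28 CPM in the same groups (3.23, SE 0.43, adjusted p = 0.00013), and Npdc1, another, rose by 1.54 (SE 0.35, adjusted p = 0.00476). The integrin subunit gene Itgav, whose dimer with Itgb3 binds gp49B, was lower at -1.23 (SE 0.29, adjusted p = 0.00607). Apoe and Pianp also passed in each background alone. Neuron marker sums were 652 to 8177 CPM in Tmem106b HET Grn KO and 81.7 to 1594 CPM in Tmem106b HET Grn WT libraries, and 600 to 1034 CPM against 114 to 1609 CPM in Tmem106b WT, which overlap in both backgrounds. All 12 neuron markers were higher in the mean comparison, and their part in the levels of Pianp and Npdc1, which neurons also express, was not tested.

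Of 26 signalling proteins 2 were higher and 13 lower in the mean comparison, with a median of -0.74, against 10.7% higher and 7.38% lower over all genes. In Tmem106b WT alone 0 passed, where 0.576% of all genes did, and in Tmem106b HET alone 13 were lower, where 6.05% of all genes were. The lower genes included Csk (-0.96, SE 0.15, edgeR adjusted p = 0.000434), an inhibitory kinase of the Src family, the adaptor Dok3 (-1.10, SE 0.18, adjusted p = 0.000646), the kinase Syk (-1.31, SE 0.24, adjusted p = 0.00121) and the lipid phosphatase Inpp5d (-1.44, SE 0.29, adjusted p = 0.00226). The 2 higher genes, named after their values were seen, were the adaptors Tyrobp (0.84, SE 0.28, adjusted p = 0.0409) and Hcst (1.10, adjusted p = 0.0338). Tyrobp averaged 2815 ± 608 CPM in Tmem106b WT Grn KO (n = 4) and 1365 ± 456 CPM in Tmem106b WT Grn WT (n = 3). Microglia marker sums moved with these genes, at 28120 to 36710 CPM in Tmem106b WT Grn KO and 51180 to 64390 CPM in Tmem106b WT Grn WT libraries, and at 10460 to 36360 CPM against 43450 to 65710 CPM in Tmem106b HET. Their part in the lower levels was not tested.

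Other receptors of the same kinds were mostly lower or did not pass. Of 20 other ITIM receptors 1 was higher and 9 were lower, with a median of -0.77, against 10.7% and 7.38% of all genes. The microglia marker sums given above were lower in the same comparison, and their part was not tested. Siglece (-1.93, SE 0.22, edgeR adjusted p = 3.4e-05), Ceacam1 (-1.36, SE 0.21, adjusted p = 0.000389) and Vsir (-1.42, SE 0.26, adjusted p = 0.00115) were lower, and Cd22, a sialic acid receptor known from B cells, was higher (1.28, SE 0.25, adjusted p = 0.0019). In Tmem106b WT microglia alone, 1 was higher (Cd22) and 1 lower (Siglece). Of 21 other activating receptors 3 were higher and 3 lower, with a median of -0.03, shares not far from the 10.7% and 7.38% of all genes. Siglech, a Tyrobp partner and microglia marker, was lower (-1.58, SE 0.25, adjusted p = 0.000467). Cd200r4 averaged 48.8 ± 7.55 CPM in Tmem106b WT Grn KO (n = 4) and 3.41 ± 1.61 CPM in Tmem106b WT Grn WT (n = 3; 3.56, SE 0.85, adjusted p = 0.00687). Clec4d averaged 10.3 ± 1.69 CPM in Tmem106b WT Grn KO and 0.0257 ± 0.0445 CPM in Tmem106b WT Grn WT (adjusted p = 0.00239), and Sirpb1b stayed under 1.3 CPM in every library.

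Of the 11 tested paralogs 1 was higher and 1 lower, with a median of -0.66, close to the 10.7% and 7.38% of all genes. Lair1, an ITIM receptor for collagens, was lower, at 507 ± 81.5 CPM in Tmem106b WT Grn KO (n = 4) and 756 ± 151 CPM in Tmem106b WT Grn WT (n = 3; -0.92, SE 0.25, edgeR adjusted p = 0.0144). Pira2 passed as higher (adjusted p = 0.0411) at 0.715 ± 0.272 CPM in Tmem106b WT Grn KO against 0.0927 ± 0.0809 CPM in Tmem106b WT Grn WT, and shares sequence with Pirb. Pilrb1 (-1.43, SE 1.01, adjusted p = 0.352) and Lilra6 (-1.67, SE 1.20, adjusted p = 0.358) did not pass.

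**Figure D5:**
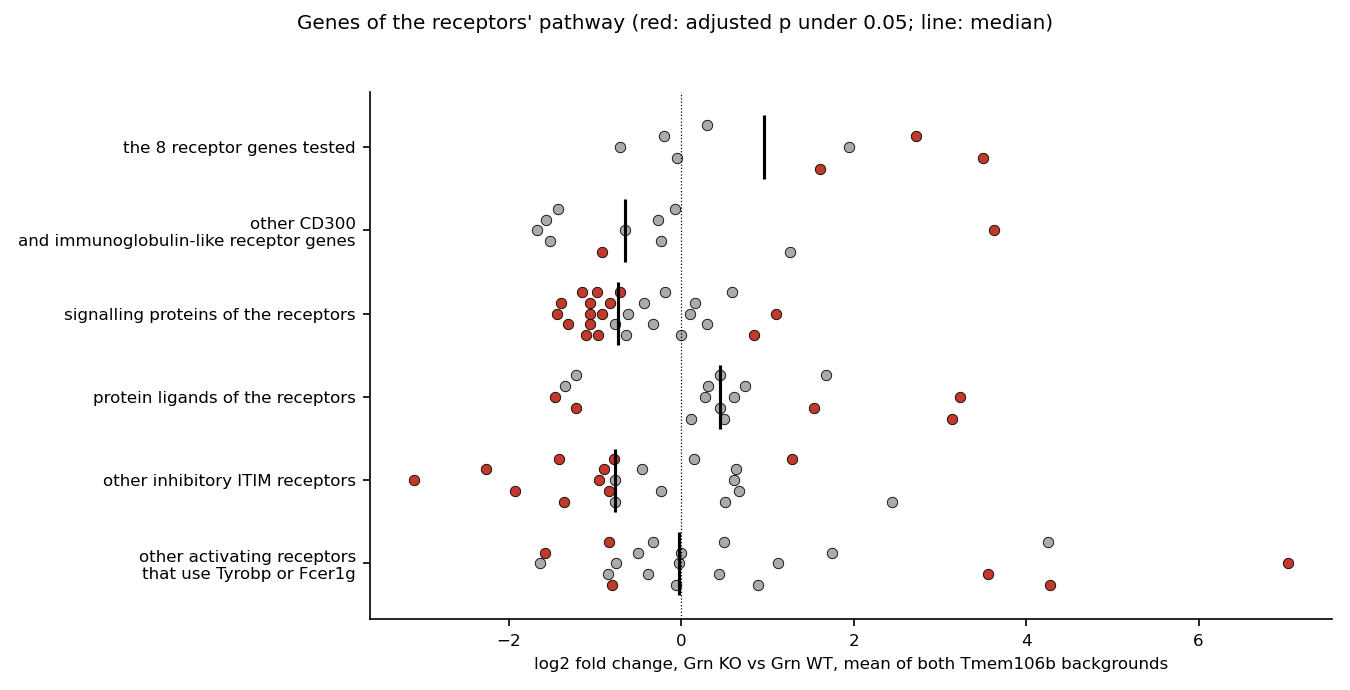
log2 fold change, Grn KO over Grn WT as the mean of both Tmem106b backgrounds, for the 8 tested receptor genes and 5 lists of related genes. Points are genes (red, edgeR adjusted p under 0.05) and lines are medians: 0.95 for the receptors, -0.66 for paralogs, -0.74 for signalling proteins, 0.45 for ligands, -0.77 for other ITIM receptors and -0.03 for other activating receptors.

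Markers of other myeloid cells that carry these receptors were also measured. Monocyte marker sums were 116 to 208 CPM in Tmem106b WT Grn KO and 37.95 to 88.4 CPM in Tmem106b WT Grn WT libraries, and 68.0 to 187 CPM against 71.5 to 149 CPM in Tmem106b HET microglia. They were higher in Grn KO without overlap in Tmem106b WT and overlapped in Tmem106b HET. The largest part of the monocyte sums came from Nr4a1 (mean 81.94 CPM over all libraries), followed by Ace (16.05 CPM). None of the 9 tested monocyte markers passed, and the defining Ly6c2 and Chil3 were at most 5.15 and 1.54 CPM. Neutrophil marker sums were 420 to 469 CPM in Tmem106b WT Grn KO and 617 to 697 CPM in Tmem106b WT Grn WT libraries, and 185 to 385 CPM against 506 to 966 CPM in Tmem106b HET, lower in Grn KO without overlap. Most of these sums came from Csf3r (mean 584.5 CPM) and Mmp9 (18.03 CPM), while the defining Ly6g was at 0 in all 26 libraries and S100a8 at most 1.94 CPM. Mast cell marker sums were 8.04 to 12.9 CPM in Tmem106b WT Grn KO and 8.57 to 20.1 CPM in Tmem106b WT Grn WT libraries. Border macrophage sums overlapped, at 725 to 1143 CPM in Tmem106b WT Grn KO and 457 to 1250 CPM in Tmem106b WT Grn WT libraries, although their listed marker Ms4a7 was among the genes most like Lilr4b. The part of monocytes, neutrophils and border macrophages in the receptor levels was not tested.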

How the data were processed

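RNA of 26 microglia libraries (SMART-Seq v4 and Nextera XT kits, per the labels' protocols) was sequenced and aligned to GRCm38 with GSNAP, per the submitters' processing notes. The deposited tables held exonic read counts per gene and RPKM values, both made by the authors, per the file headers. Totals were 37562732 to 63710833 counts per library, and counting of shared reads and strand was not given in the sources used here. Of 52636 genes 52489 matched GENCODE M21.

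Counts were tested with edgeR 4.0.16 (R 4.3.3): TMM scaling, filterByExpr (21371 genes), a model of the 7 groups with sex and dissection as covariates (17 residual degrees of freedom), the quasi-likelihood test and Benjamini-Hochberg adjustment over all genes. Fold changes used a prior count of 0.125. CPM used TMM-scaled totals, except marker sums, which used plain totals. RPKM served only to compare levels between genes. Alternatives used DESeq2 1.42.0 and other filters, covariates and libraries. The pipeline was tested on simulated data.

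Members and gene lists were chosen with earlier results of these data known. Named genes were Grn, Tmem106b, the members, up to 4 genes of each pathway list with the smallest p in the mean Grn KO against Grn WT comparison, up to 3 of each marker list by mean CPM, and the 3 genes most like each member (mean of at least 5 CPM, Spearman correlation). Genes outside these were chosen after their values were seen: Hcst, Tyrobp and Itgb3, the genes that overlap or share sequence with a member (Rab37, Zcwpw1, Gm49339, Gm14548), and the defining markers Ly6c2, Chil3, Ly6g and S100a8.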

Additional observations from a re-analysis of the deposited data

Results flagged for a closer look

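Outliers were searched in 36 sets of values, each of 1 member in 1 group of 4 or 5 libraries. Of these sets, 5 held 1 value far from the rest by Dixon's criterion, which chance gives in about 5% of sets. Cd300a was lowest in Tmem106b WT Grn KO replicate 2, at 164.4 CPM. Cd300lb was at 0.0 CPM in Tmem106b KO Grn WT replicate 2, the library low in microglia markers, and at 0.39 CPM in Tmem106b WT Grn HET replicate 2. Pirb was lowest in Tmem106b WT Grn HET replicate 5, at 26.88 CPM. Lilrb4a was highest in Tmem106b HET Grn WT replicate 2, at 0.07334 CPM, where the other 3 libraries were at 0. The libraries with the Cd300a, Cd300lb and Pirb values were all labelled Hemi, and the Lilrb4a value stood for 4 counts. The cause of these values was not tested.

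For 2 genes every Tmem106b HET library lay on opposite sides of the Tmem106b WT mean at different Grn genotypes, a difference that was not tested as such. Cd300lf was 2.09 CPM higher in Tmem106b HET than in Tmem106b WT among Grn WT libraries and lower among Grn HET libraries (-1.78 CPM), a difference of -3.87 CPM. Pilra was 12.24 CPM higher in Tmem106b HET among Grn HET libraries and lower among Grn KO libraries (-9.075 CPM), a difference of -21.31 CPM. These CPM differences were not adjusted for sex or dissection, and how many of all genes meet the same rule was not counted. Tmem106b HET Grn HET held 0 Hemi libraries and Tmem106b WT Grn HET held 2. The Tmem106b HET Grn KO group held the library low in microglia markers.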

How the results depend on the processing

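No called member value changed sign under any alternative. Of the alternative values of single members 1492 stayed on the same side of the threshold in the same direction, 14 passed it only under the alternative, 14 no longer passed it, and 116 changed sign without passing in either setting. Among the log2 fold changes printed above, those that changed sign were the following. Cd300c2 in Grn KO against Grn WT turned to 0.0549 without covariates and 0.1568 with marker sums of other cells in Tmem106b WT (-0.2957 to 0.1303 when each library was left out in turn), and to 0.0444 in Entire libraries and 9e-04 with marker sums in Tmem106b HET. Cd300a in Tmem106b HET turned to 0.0949 without covariates, 0.1711 in Entire libraries, 0.036 with marker sums and 0.1289 without the 2 libraries lowest in microglia markers (-0.6113 to 0.0064), and Pirb there ran from -0.05 to 0.2703 with libraries left out. For Grn HET against Grn WT in Tmem106b HET, Cd300lf turned to 5e-04 without covariates and 0.1229 with sex alone, and Lilr4b to -0.5422 in Entire libraries and -1.1816 on the compared groups alone (-0.0632 to 0.7708). The count of members called in Grn KO against Grn WT was 2 in Tmem106b WT microglia, and 0 without Tmem106b WT Grn WT replicate 2 (0 to 2 when each library was left out in turn). In Tmem106b HET microglia it was 2, and 0 with summed markers of other cells as covariates (2 to 2). For the mean it was 3 (2 to 3). Against Grn HET it was 2 in Tmem106b WT microglia, and 4 in a fit on the compared groups alone (2 to 2). In Tmem106b HET microglia it was 2, and 4 by the DESeq2 Wald test, 0 with marker sums, 0 on the compared groups alone and 0 without Tmem106b HET Grn HET replicate 2 (0 to 3). For Tmem106b KO against Tmem106b WT it was 0, and 1 by DESeq2. The cause of these shifts was not tested. The fit on the compared groups alone and the one without the 2 libraries lowest in microglia markers were chosen after seeing the data. Over all genes, Grn KO against Grn WT called 123 in Tmem106b WT microglia (1 to 1171 over the alternatives), 3093 in Tmem106b HET (2 to 5264) and 3863 in the mean (100 to 5812), the lowest without Tmem106b WT Grn WT replicate 2 or with marker sums and the highest by DESeq2. Against Grn HET it called 201 (56 to 1006) and 1398 (0 to 3641). DESeq2 called 93 to 548 genes where edgeR called 0 or 1. No paired analysis was possible because the replicate numbers only name libraries in the order of deposit. Depth limits Lilrb4a, at 50 counts in all.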
